A study of Mus musculus with 4 samples.

Results

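The comparison described here is that of stimulated B lymphocytes from Tilcara mice with stimulated B lymphocytes from wild-type mice. It rests on 2 of the 4 arrays of the series, those titled TIL_ST and WT_ST, chosen by their labels and not by any measured value. Both genotypes were on the C57BL/6 background. Tilcara is labelled as a PKCbeta mutant, without the nature of the mutation, and PKCbeta is the product of Prkcb. Cells from spleen, thymus and lymph node suspensions were sorted for B220 (CD45R). The stimulus was PMA at 10 ng/mL together with the calcium ionophore A23187 at 1 µM, given for 4 hours. The other arrays, TIL_NS and WT_NS, held resting cells of the same genotypes, labelled non-stimulated, and served as a background. The number, age and sex of the mice behind each array, and whether animals were pooled, are not stated in the labels.

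PKCbeta is a kinase that, after the B cell receptor fires, opens the route to NF-kB, the transcription factor family behind much of the survival and cytokine programme of activated B cells. PMA mimics diacylglycerol and activates diacylglycerol-responsive PKC enzymes as well as RasGRP proteins, which feed the ERK and AP-1 pathway. The ionophore lets calcium in and turns on NFAT through calcineurin. The drugs thus bypass the receptor, and the comparison asks which induced or repressed transcripts differ when PKCbeta is mutated.

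Signals are log2 RMA values, on which a difference of 1 is 2-fold. Of 22180 genes with a probe set of a single gene symbol, 11640 reached the signal floor of 3.83 in at least 1 of the stimulated arrays and were used. There was 1 array per group, so no spread between replicates exists, no test was made, and higher and lower describe these arrays only. Folds against a value under the floor are approximate. The B cell label held: all 18 measured B cell identity genes were above the floor in both resting arrays and 17 and 18 of them in the stimulated wild-type and Tilcara arrays, with Ms4a1 (CD20) at 8.23 in each.

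Signals at least 2-fold lower in stimulated Tilcara cells included 8 of 18 used cytokine genes, among them Il10 and Il2, 6 of 25 genes of cytokine receptors and STAT signalling, among them Stat5a and Cish, and 5 of 19 NF-kB feedback and survival genes, among them Bcl2l1. Signals at least 2-fold higher included the TNF family ligand genes Tnfsf4 and Tnfsf18, the cytokine gene Csf1 and the B cell genes Cd79b, Fcrla and Bank1. In all, 90 genes (0.773%) were at least 2-fold lower and 115 (0.988%) at least 2-fold higher in the Tilcara array, 205 together (1.76%). The same 11640 genes gave 50 lower (0.43%) and 32 higher (0.275%) between the resting arrays, 82 together (0.704%). Because genes were chosen by their stimulated values, those above the floor only at rest are missing from the resting counts. S100a8, which differed by -5.19 at rest, and Klk1, which differed by 3.65, were among those left out. The median difference over all used genes was 0.01. The lower genes held more of the large differences, 16 of them at least 4-fold, against 10 of the higher genes. Where both stimulated values had to reach the floor, 66 genes were lower and 71 higher.

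**Figure D1:**
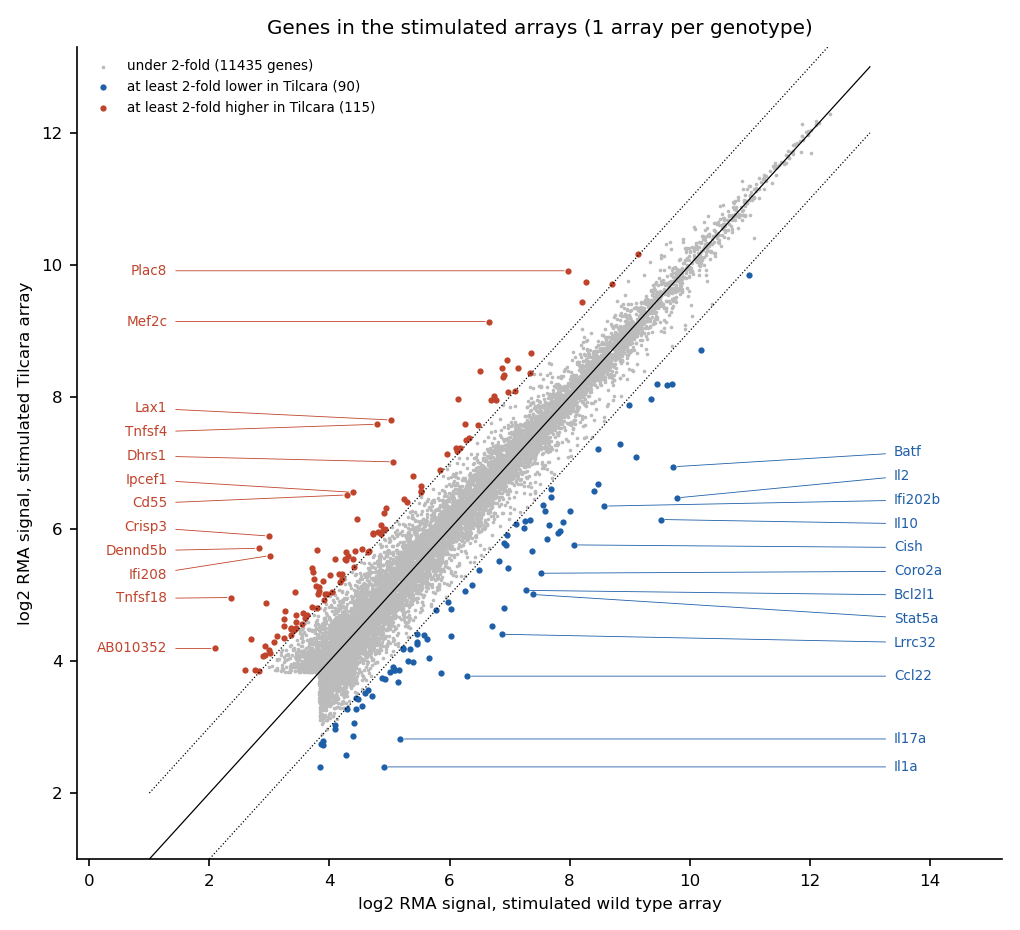
Log2 RMA signal of the 11640 used genes in the stimulated wild-type array (x axis) and the stimulated Tilcara array (y axis), 1 array each; the solid line marks equal signals and the dotted lines 2-fold. The 90 blue genes lie at least 2-fold below equality and the 115 red genes at least 2-fold above it, and the 12 largest in each direction are named.

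The 2 largest differences were those of interleukin genes. Il10 (probe set 17216990), which encodes an anti-inflammatory cytokine made by regulatory B cells, had a signal of 9.52 in wild type and 6.14 in Tilcara after stimulation, with resting signals of 3.31 and 3.90, and was thus 10.4-fold lower. Il2 (probe set 17404880), whose product drives T cell growth, read 9.78 and 6.47 after stimulation and 2.08 and 2.30 at rest, a 9.94-fold lower signal. For both genes the Tilcara array stood well above either resting array and well below stimulated wild type. Batf, an AP-1 family factor that pairs with IRF4, read 9.72 and 6.94 (6.88-fold lower), with resting signals of 5.89 and 5.63.

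In a further group the Tilcara signal after stimulation was near its resting level. Ccl22, the chemokine that draws CCR4-bearing T cells, stood at 6.29 in wild type and 3.77 in Tilcara after stimulation, against 3.62 and 3.46 at rest. The inflammatory cytokine gene Il1a read 4.91 and 2.40, and Il17a read 5.18 and 2.82, with all resting values of both genes between 2.16 and 2.74. Lrrc32, which encodes GARP, the surface anchor of latent TGF-beta, read 6.87 and 4.41 against 3.91 and 4.19 at rest. For Ccl22, Il1a and Il17a only the stimulated wild-type array was above the floor, so these genes entered the comparison through that array and their folds of 5.75, 5.69 and 5.13 are approximate.

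The remaining genes of the 12 that were lower by the most were Stat5a, Cish, Ifi202b, Bcl2l1 and Coro2a, between 4.55-fold and 5.20-fold lower. Ifi202b, of the interferon-inducible PYHIN family, read 8.58 in wild type and 6.35 in Tilcara after stimulation, from under the floor at rest. Coro2a, a coronin that binds actin, read 7.52 and 5.33, against 6.79 and 6.98 at rest. For Coro2a and Stat5a the stimulated Tilcara signal lay below both resting signals. The other probe set of Coro2a differed by -1.18.

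**Figure D2:**
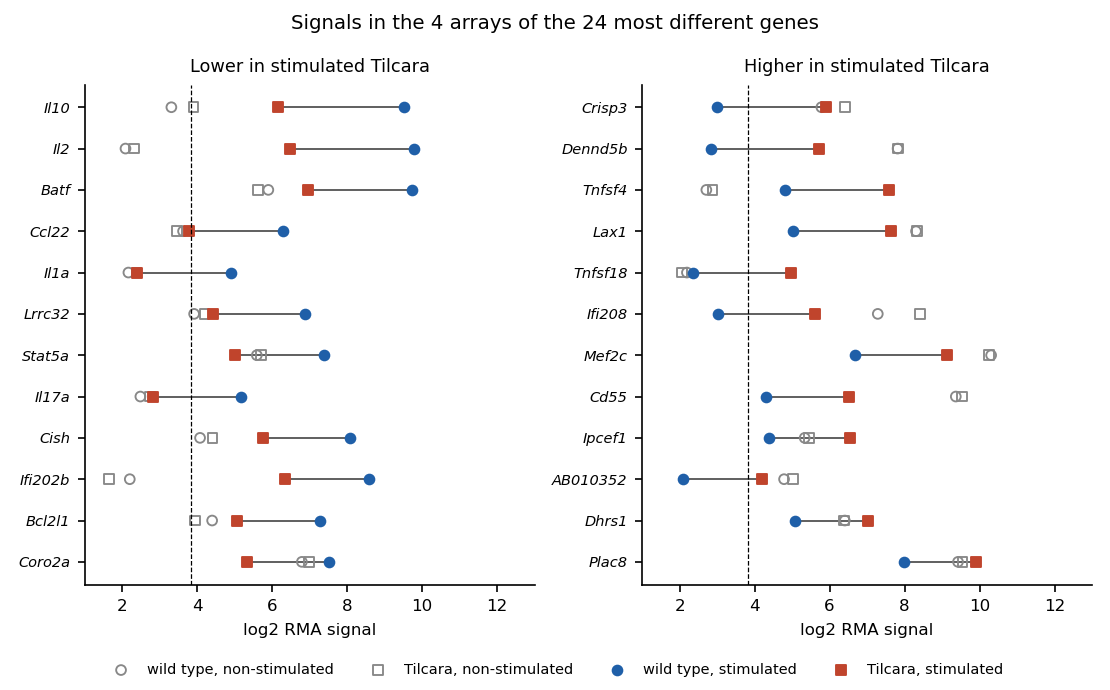
Log2 RMA signals (x axis) in the 4 arrays of the 12 genes lower by the most (left) and the 12 higher by the most (right) in stimulated Tilcara, 1 array per symbol; the dashed line is the signal floor of 3.83. Il10 and Il2 read 6.14 and 6.47 in stimulated Tilcara against 9.52 and 9.78 in stimulated wild type, and Tnfsf4 read 7.59 against 4.80.

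Cytokines were the list with the most members lower. Of 25 genes, 18 were used and 7 stayed under the floor in both stimulated arrays. Of the 18, 8 were at least 2-fold lower and 1 higher, beside 0.773% and 0.988% of all used genes. Their median difference was -0.85. After Il10, Il2, Il1a and Il17a came Tnf, the founding TNF family cytokine, at 10.18 in wild type and 8.72 in Tilcara (2.76-fold lower). Il13 (2.75-fold), Ebi3 (2.33-fold) and the STAT3-activating cytokine Lif (2.29-fold) followed. Il13 was under the floor in stimulated Tilcara, so it entered through the wild-type array and its fold is approximate. Ebi3, the shared subunit of IL-27 and IL-35, had a second probe set that read 6.97 and 4.27, a larger difference than that of its brightest probe set, 6.37 and 5.14. Csf1, the macrophage growth factor, went the other way, at 6.15 in wild type and 7.96 in Tilcara after stimulation. Ifng differed by 0.15 and the lymphotoxin genes Lta and Ltb by -0.44 and -0.42. Without a filter on low signals the list's median was -0.44 over all 25 genes, and with both stimulated values at or above the floor 5 of 14 were lower.

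Chemokine genes had a median difference of -0.34 over 13 used members. At least 2-fold lower were 2 of them and none was higher, beside 0.773% and 0.988% of all used genes. The lower members were Ccl22 and the neutrophil attractant Cxcl2, which read 5.23 in wild type and 4.18 in Tilcara. The interferon-inducible Cxcl10 read 7.98 and 7.09. The inflammatory chemokine genes Ccl3 and Ccl4 differed little, by -0.15 and -0.34.

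The JAK-STAT5 axis was lower at several steps, although the receptor chain Il2ra was not. Interleukin-2 and related cytokines act through JAK kinases and STAT5A and STAT5B, which in turn induce CISH and SOCS proteins as feedback inhibitors. Of 25 used genes for cytokine receptors and STAT signalling, 6 were at least 2-fold lower and none higher, with a median of -0.28. Among all used genes the shares were 0.773% and 0.988%. Stat5a read 7.39 in wild type and 5.01 in Tilcara after stimulation, with 5.59 and 5.70 at rest. Its chromosomal neighbour Stat5b read 6.03 and 4.78, from 6.56 and 6.45 at rest. Both genes thus stood lower in stimulated Tilcara than in any other array.

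Among the feedback genes, Cish read 8.07 in wild type and 5.76 in Tilcara after stimulation (4.98-fold lower), and its second probe set differed by -1.32. Socs3 read 8.0 and 6.27, with 4.91 and 5.49 at rest, whereas Socs1 and Socs2 differed by -0.20 and -0.05. Jak2, the kinase of many cytokine receptors, read 8.84 and 7.29, the Tilcara value lying below both resting signals of 7.70 and 7.79. The eosinophil and B-1 cell receptor gene Il5ra differed by -1.12, from a wild-type signal of 4.09 near the floor. Its stimulated Tilcara signal, 2.97, was under the floor. Il5ra thus entered through the wild-type array, and its fold is approximate. Il2ra differed by -0.10, Il2rb by -0.56 and Il7r by -0.19.

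Stretches of the promoters of the lower genes Cish, Socs3 and Icam1 from the RefSeq table (build GRCm38.p6) are shown because they carry the palindrome TTCNNNGAA, the core to which STAT dimers bind, and Tnfaip3 is shown for NF-kB and AP-1 letters. Capitals mark the matches. The stretches are chr9:107296609-107296680 on the plus strand for Cish, chr11:117969483-117969541 on the minus strand for Socs3, chr9:21015870-21015928 on the plus strand for Icam1, and chr10:19015411-19015560 on the minus strand for Tnfaip3, which has 2 listed promoters, each written 5′ to 3′ along its gene.
Cish: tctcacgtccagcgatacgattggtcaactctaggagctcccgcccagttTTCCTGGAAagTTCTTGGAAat
Socs3: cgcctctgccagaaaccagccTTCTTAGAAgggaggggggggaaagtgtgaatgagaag
Icam1: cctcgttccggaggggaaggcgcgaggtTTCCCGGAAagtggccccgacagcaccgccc
Tnfaip3: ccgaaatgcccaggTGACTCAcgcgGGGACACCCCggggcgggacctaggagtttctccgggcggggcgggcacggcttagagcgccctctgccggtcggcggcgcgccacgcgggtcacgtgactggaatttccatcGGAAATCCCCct

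In Cish the matches begin at bases 1 and 12 of the annotated transcript start, in Socs3 the match begins 154 bases upstream of it and in Icam1 42 bases upstream. In Tnfaip3, TGANTCA, the AP-1 core, begins 136 bases upstream, and the NF-kB consensus matches begin 125 and 12 bases upstream. All 3 motifs were searched on both strands in windows of 250 bases before and 50 after each start, over every start listed for a gene. TTCNNNGAA was present in 9 of 71 lower genes with a listed promoter (12.7%), 9 of 83 higher genes (10.8%) and 8.22% of the 9117 used genes with a promoter. TGANTCA was present in 16.9% of the lower genes, 7.23% of the higher and 6.26% of the used genes, and the NF-kB consensus in 15.5%, 7.23% and 12.1%. Over all 27025 genes of the table the shares were 9.55% for TTCNNNGAA, 8.97% for TGANTCA and 9.55% for the NF-kB consensus. These are counts of letters, not of binding sites, and NF-kB and AP-1 matches can overlap.

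NF-kB feedback and survival targets included 5 genes at least 2-fold lower of 19 used, and none higher, beside 0.773% and 0.988% of all used genes. Of the 19, 16 lay below 0, beside 47.8% of all used genes, and their median was -0.44. Bcl2l1, which encodes the survival protein BCL-XL, read 7.27 in wild type and 5.07 in Tilcara after stimulation, with 4.39 and 3.95 at rest. Traf1, an adaptor of TNF receptors, read 7.37 and 5.67, the latter below its resting signals of 5.93 and 5.99. Tnfaip3, the A20 deubiquitinase that shuts NF-kB off, read 9.70 and 8.19 against 6.92 and 6.87 at rest. Stimulated Tilcara was thus above rest for Bcl2l1 and Tnfaip3 but not for Traf1.

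Gadd45b, a stress and survival gene, read 10.98 and 9.85. The receptor gene Cd40 read 7.24 and 6.02, both below the resting signals of 8.26 and 8.24. The caspase-8 regulator Cflar and the kinase gene Pim1 differed by -0.86 and -0.88, short of 2-fold. Sod2, Mcl1 and Irf1, also known targets, differed by 0.06, -0.07 and -0.20.

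None of the 10 used genes for NF-kB subunits and IkB proteins reached 2-fold, yet 9 of them were lower, with a median of -0.42. The IkB family genes Nfkbia, Nfkbiz and Nfkbid differed the most. Nfkbia, the classical IkB alpha, read 9.70 in wild type and 8.77 in Tilcara, Nfkbiz 8.01 and 7.19, and Nfkbid 8.64 and 7.90. The IkB genes Nfkbib and Nfkbie differed less, by -0.33 and -0.32, and Bcl3 by -0.52. The subunit genes Rel and Rela differed by 0.01 and -0.07, and Nfkb2 and Relb by -0.55 and -0.21. In the resting arrays the median of this list was 0.07.

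Transcripts of PKC enzymes differed little. Prkcb itself read 7.28 in wild type and 7.27 in Tilcara after stimulation; since the label names a mutant and not a deletion, this level checks nothing about the genotype. Of the 7 used PKC genes none reached 2-fold, and only Prkca, for PKC alpha, came near it, at 5.70 in wild type and 4.84 in Tilcara. Rasgrp3, a diacylglycerol-activated Ras exchange factor, was the exception among other diacylglycerol targets, 2.42-fold higher in Tilcara at 8.02 against 6.74, while Rasgrp1 differed by -0.57.

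AP-1 and ERK-induced genes were mostly within 2-fold. Batf was the only gene of 15 used AP-1 and ATF factors to pass it, and the list's median was -0.25. Over all used genes 0.773% were at least 2-fold lower and 0.988% higher. Junb read 8.02 in wild type and 7.10 in Tilcara, whereas Fos, Jun and Fosl2 differed by -0.12, 0.35 and 0.31. Of 22 ERK-induced early genes and feedback regulators, only Dusp10, a phosphatase of JNK and p38 kinases, passed 2-fold, at 6.25 and 5.07, and the median was -0.15. Myc, Egr1, Egr2 and Spry1 differed by -0.17, -0.49, 0.46 and 0.55.

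Over 18 used genes induced by calcium and NFAT the median was -0.09. Beside 0.773% and 0.988% of all used genes, 2 were at least 2-fold lower, Il2 and Tnf, and 1 higher. The latter was the orphan receptor gene Nr4a2, at 8.70 in wild type and 9.71 in Tilcara; it was just under 2-fold after cyclic loess, at 0.97. Nr4a1 and Nr4a3 differed by -0.24 and -0.42, and the calcineurin regulator gene Rcan1 by 0.48.

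**Figure D3:**
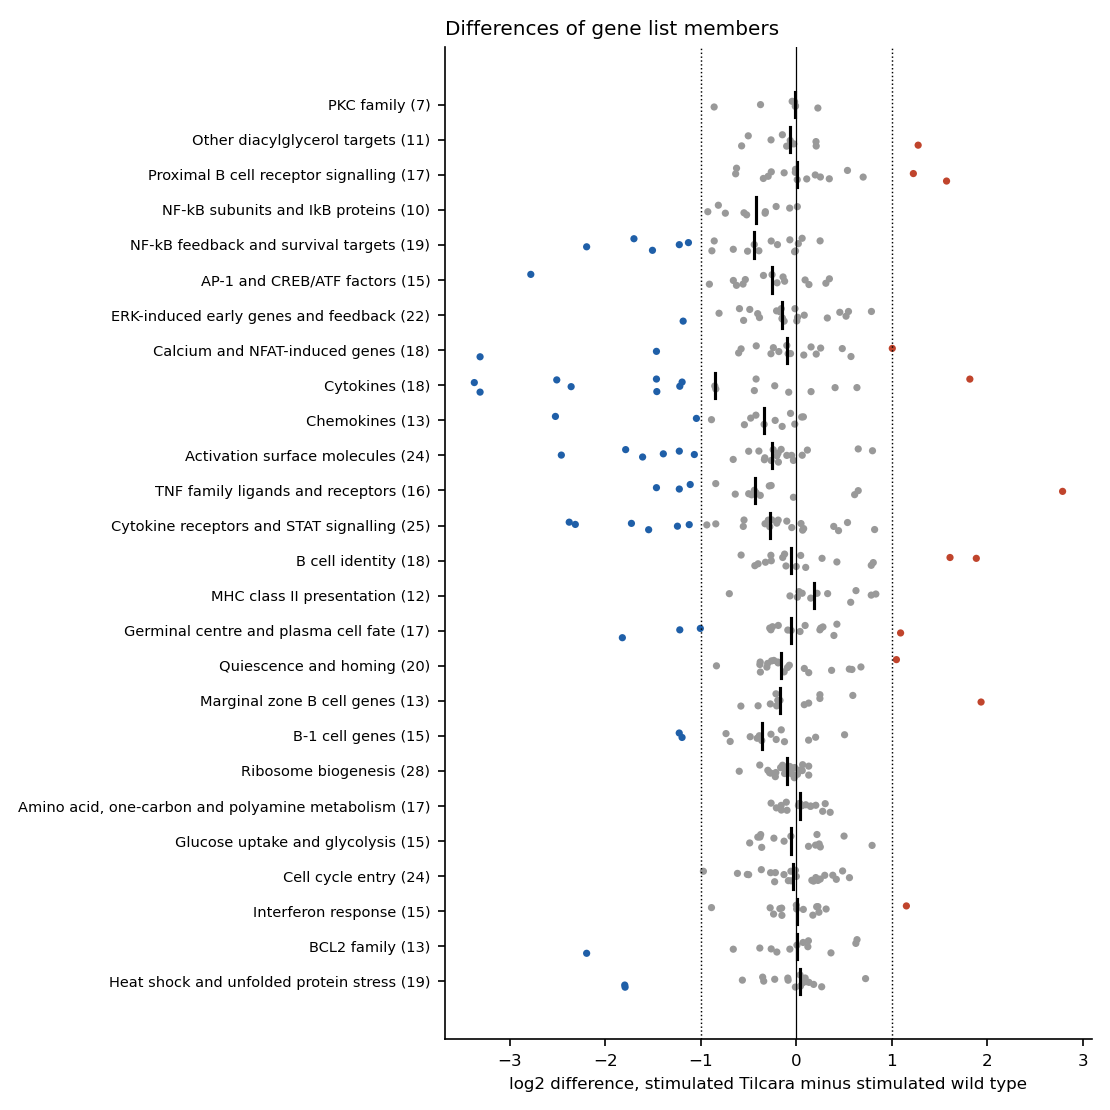
Log2 difference, stimulated Tilcara minus stimulated wild type (x axis), of the used members of the gene lists described (rows, number of used members in brackets); points are genes, black bars medians, dotted lines 2-fold, and blue and red points lie beyond them. Cytokines have the lowest median, -0.85, and no member of the lists for ribosome biogenesis, MHC class II or the metabolic pathways passes 2-fold.

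Of 24 used activation surface molecules 6 were at least 2-fold lower and none higher, beside 0.773% and 0.988% of all used genes. The list's median was -0.25. Icam1, the adhesion ligand of LFA-1, read 7.63 in wild type and 5.84 in Tilcara after stimulation, beside 5.70 and 5.95 at rest, so the Tilcara signal stood within the resting range. The checkpoint ligand genes Cd274 (PD-L1) and Pdcd1lg2 (PD-L2) read 9.36 and 7.96, and 5.97 and 4.90. Havcr1, which encodes TIM-1, a marker of regulatory B cells, read 5.65 and 4.04, but was already 2.43-fold lower in resting Tilcara. Costimulatory Cd86 and the early marker Cd69 differed by 0.12 and -0.66.

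TNF family ligands went both ways. Tnfsf4 (probe set 17218701), encoding OX40 ligand, read 7.59 in stimulated Tilcara and 4.80 in stimulated wild type (6.91-fold higher), with 2.71 and 2.87 in resting wild type and Tilcara. Tnfsf18 (probe set 17218707), encoding GITR ligand, read 4.96 and 2.36, and only the stimulated Tilcara array was above the floor. These ligands costimulate T cells, and their genes were next to each other among the used genes of chromosome 1. Tnfsf9, encoding 4-1BB ligand, was lower, at 3.86 in wild type and 2.74 in Tilcara. Its stimulated wild-type signal was barely above the floor and its Tilcara signal under it. Tnfsf9 thus entered the comparison through the wild-type array, and its fold is approximate. The list counted 3 lower (Tnf, Cd40 and Tnfsf9) and 1 higher of 16 used members, beside 0.773% and 0.988% of all used genes. Medians were -0.43 for the list and 0.01 for all used genes. Tnfsf18 was not among the list's genes.

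The other genes that were higher by the most were, for the most part, strongly expressed at rest. Dennd5b, a Rab exchange factor gene, read 7.81 and 7.83 at rest, 2.82 in wild type and 5.71 in Tilcara after stimulation, and its second probe set was higher by 1.14. Lax1, an adaptor that restrains antigen receptor signalling, read 8.30 and 8.33 at rest, then 5.03 and 7.65. Mef2c, a transcription factor of B cell proliferation, read 10.31 and 10.25 at rest, then 6.66 and 9.14, and its second probe set was higher by 2.28. Stimulated Tilcara lay between the resting arrays and stimulated wild type for each of these genes.

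Cd55, the complement decay-accelerating factor, followed the same order at 9.37 and 9.52 at rest, 4.30 in wild type and 6.52 in Tilcara after stimulation. Ifi208, another PYHIN family gene, read 3.01 in wild type and 5.60 in Tilcara after stimulation, but it was also 2.19-fold higher in resting Tilcara. Crisp3, a secreted cysteine-rich protein gene, was higher by the most, 7.46-fold, at 2.99 against 5.89, with 5.78 and 6.42 at rest. For Crisp3 and for Plac8, Dhrs1 and Ipcef1 the stimulated Tilcara signal was at or above that of resting wild type. Plac8 read 7.98 and 9.91, Dhrs1 5.07 and 7.02, Ipcef1 4.39 and 6.56, and AB010352 2.10 and 4.19. Crisp3, Dennd5b, Ifi208 and AB010352 were under the floor in stimulated wild type. These genes entered the comparison through the stimulated Tilcara array, and their folds are approximate.

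Resting signals entered only the choice of probe sets and the level of the floor. The median resting signal, averaged over both genotypes, was 6.44 for the 115 higher genes, 5.16 for the 90 lower genes and 5.78 for all used genes. Both resting values lay under the floor in 22.2% of the lower genes, 8.70% of the higher genes and 7.04% of all used genes. At least 1 of the stimulated values lay under the floor in 44 of the higher and 24 of the lower genes, and their folds are approximate.

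Of 18 B cell identity genes 2 were at least 2-fold higher in Tilcara, as were 2 of 17 genes of proximal antigen receptor signalling. None of either list was 2-fold lower. Among all used genes 0.988% were higher and 0.773% lower. Cd79b, a signalling chain of the antigen receptor, read 6.96 in wild type and 8.57 in Tilcara after stimulation, from 11.39 and 11.23 at rest. Its partner Cd79a read 7.69 and 8.49. The B cell scaffold gene Bank1 read 6.87 and 8.44, and Fcrla, an intracellular Fc receptor-like protein of B cells, 3.80 and 5.68. The exchange factor gene Vav3 read 3.83 and 5.06. Fcrla and Vav3 were under the floor in stimulated wild type, so they entered through the Tilcara array and their folds are approximate. Each of Cd79b, Bank1 and Fcrla stayed below its resting signals in both stimulated arrays.

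The lists as wholes did not move that way. Over the 18 B cell identity genes the median was -0.05 and the mean 0.18, so these differ in sign, and Cd22, Pax5 and Ebf1 differed by 0.05, -0.27 and -0.12. The median was 0.01 over the 17 used genes of proximal antigen receptor signalling. MHC class II genes had a median of 0.18, with 10 of 12 above 0 and none past 2-fold; H2-Eb2 at 0.83 and H2-Oa at 0.78 were highest, while their transactivator Ciita read 5.78 in wild type and 5.08 in Tilcara.

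**Figure D4:**
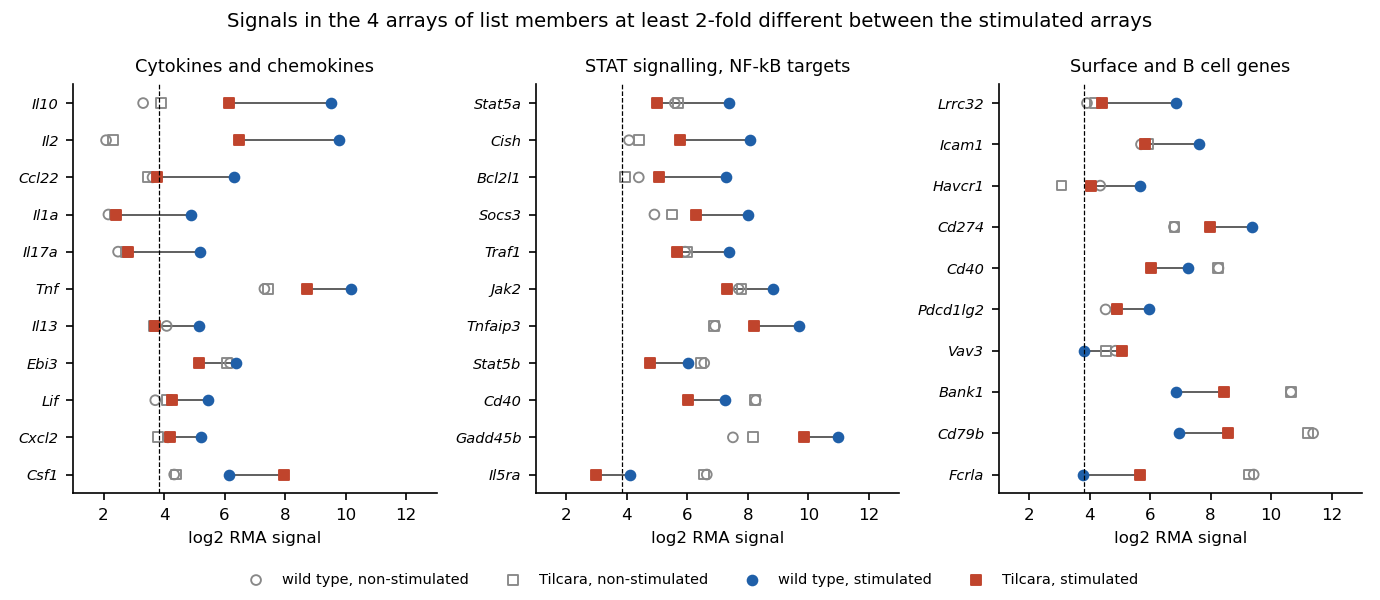
Log2 RMA signals (x axis) in the 4 arrays, 1 array per symbol, of list members that differed at least 2-fold between the stimulated arrays; the dashed line is the signal floor. Apart from Csf1, the cytokine, chemokine, STAT and NF-kB genes are lower in stimulated Tilcara, and Vav3, Bank1, Cd79b and Fcrla are higher.

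Genes of germinal centre and plasma cell fate were split, 3 of 17 at least 2-fold lower (Id2, Ebi3 and Jchain) and 1 higher. Among all used genes the shares were 0.773% and 0.988%. Id2, an inhibitor of E proteins, read 8.40 in wild type and 6.58 in Tilcara after stimulation, and its relative Id3 read 3.92 and 5.01. Resting signals of Id2 were 5.0 and 5.97, so the genotype order was the reverse without stimulation. Prdm1, Irf4, Bcl6 and Xbp1, the factors of plasma cell and germinal centre fate, differed by 0.39, -0.25, 0.09 and 0.04. Jchain, whose product links immunoglobulins into polymers, read 4.44 and 3.44. It was lower in resting Tilcara too, at 3.78 against 4.95, and fell short of 2-fold after centring (-0.99). The B-1 cell list had a median of -0.36 after stimulation and -0.28 at rest, with Ctla4 and Zbtb32 lower by over 2-fold. Zbtb32, a repressor of plasma cell responses, read 7.56 and 6.36. Jchain and Ctla4 were under the floor in stimulated Tilcara, so they entered through the wild-type array and their folds are approximate.

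Txnip, a brake on glucose uptake that is high in quiescent cells, was the only quiescence or homing gene of 20 to pass 2-fold, at 5.52 in wild type and 6.57 in Tilcara; the list's median was -0.16. S1pr1, Cxcr4, Klf2 and Ccr7 differed by 0.68, 0.58, -0.24 and -0.26. Marginal zone genes had a median of -0.17 and a mean of 0.09, with Plac8 the 1 member of 13 past 2-fold. Txnip and Plac8 were both higher, beside 0.988% of all used genes higher and 0.773% lower.

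Growth genes were nearly level between the genotypes. No member passed 2-fold among 28 ribosome biogenesis genes (median -0.09), 17 genes of amino acid, one-carbon and polyamine metabolism (0.04), 15 of glucose uptake and glycolysis (-0.06) or 24 of cell cycle entry (-0.03). The largest were Polr1c (-0.60), Slc1a5 (0.35), Pfkfb3 (0.79) and the cyclin gene Ccnd2, at 10.38 in wild type and 9.40 in Tilcara, which stood at -0.97, and at -1.02 after cyclic loess. Interferon response genes had a median of 0.00, with Rtp4 the 1 of 15 past 2-fold, 2.22-fold higher. Rtp4 was under the floor in stimulated wild type, so its fold is approximate. BCL2 family genes had a median of 0.01 and a mean of -0.14; beside Bcl2l1, Bcl2 differed by -0.66 and the pro-apoptotic Bmf by 0.62. Heat shock and unfolded protein genes had a median of 0.04 and a mean of -0.19, the latter pulled by Hspa1a and Hspa1b, at -1.79 and -1.80. Housekeeping genes had a median of 0.07, with Actb at -0.39 and Gapdh at 0.50 farthest from it.

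Markers of other cells differed beside the cytokine genes. Of 17 measured T cell markers, 9 were above the floor in wild type and 6 in Tilcara after stimulation, their summed linear signals being 344 and 258 (999.9 and 899.96 at rest). The 9 used T cell markers were lower in Tilcara, but 3 of them, Cd28, Ctla4 and Zap70, had passed the filter through the wild-type array alone, and Ctla4 (4.54 and 3.32) and Thy1 (5.01 and 3.84) were past 2-fold; Thy1 was 3.63-fold lower at rest as well. The defining markers Cd3d, Cd3e, Cd3g, Cd4 and Cd8a were under the floor in both stimulated arrays and so were not used. Of these, Cd3d and Cd3g differed by 0.33 and 0.40, Cd4 and Cd8a by -0.15 and -0.64, and Cd3e read 3.54 in each; Cd8b1, also under the floor, differed by 0.36. Without the marker genes of other cells 88 genes were lower and 115 higher. The part of T cells in the signals of Il2, Il17a, Il13 and Ctla4 was not tested, and fewer cells of a type cannot be told apart from less RNA per cell.

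Markers of further cell types varied after stimulation, and those of neutrophils were faint. Neutrophil markers were above the floor for 2 of 15 genes in wild type and 0 in Tilcara, with summed signals of 135 and 116, although resting wild type held 877 against 139. S100a8 read 2.75 and 2.36 after stimulation. Macrophage markers had 7 of 16 above the floor in each stimulated array, with summed signals of 474 and 533, Lyz2 being under it in both. Dendritic cell markers summed to 480 and 488, thymocyte markers to 526 and 519, NK cell markers to 430 and 345 and the 4 measured erythroid markers to 101 and 95.0. Only 3 of 7 thymocyte markers and 3 of 11 NK cell markers were above the floor in each stimulated array. Most of the thymocyte sum came from Satb1, at 8.81 in wild type and 8.79 in Tilcara. Most of the NK sum came from Ccl5, at 8.15 and 7.73. The part of these cells in the results was not tested.

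Of the 90 lower genes 84 differed by under 2-fold between the resting arrays, and of the 115 higher genes 111 did; the resting and stimulated differences share no array. Few genes of any kind passed 2-fold at rest, 0.704% of all used genes, so these counts are not particular to the lower and higher genes. Havcr1, Ifitm2, Jchain and Thy1 were at least 2-fold lower in both states, which is 4.44% of the stimulated and 8% of the resting list, beside 0.43% of all used genes lower at rest. Ifi208 and Snora2b were higher in both, 1.74% of the stimulated and 6.25% of the resting list, beside 0.275%. Ifitm2, an interferon-induced membrane protein gene, read 7.84 and 5.97 after stimulation and 5.05 and 3.19 at rest, differences of -1.87 and -1.86.

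**Figure D5:**
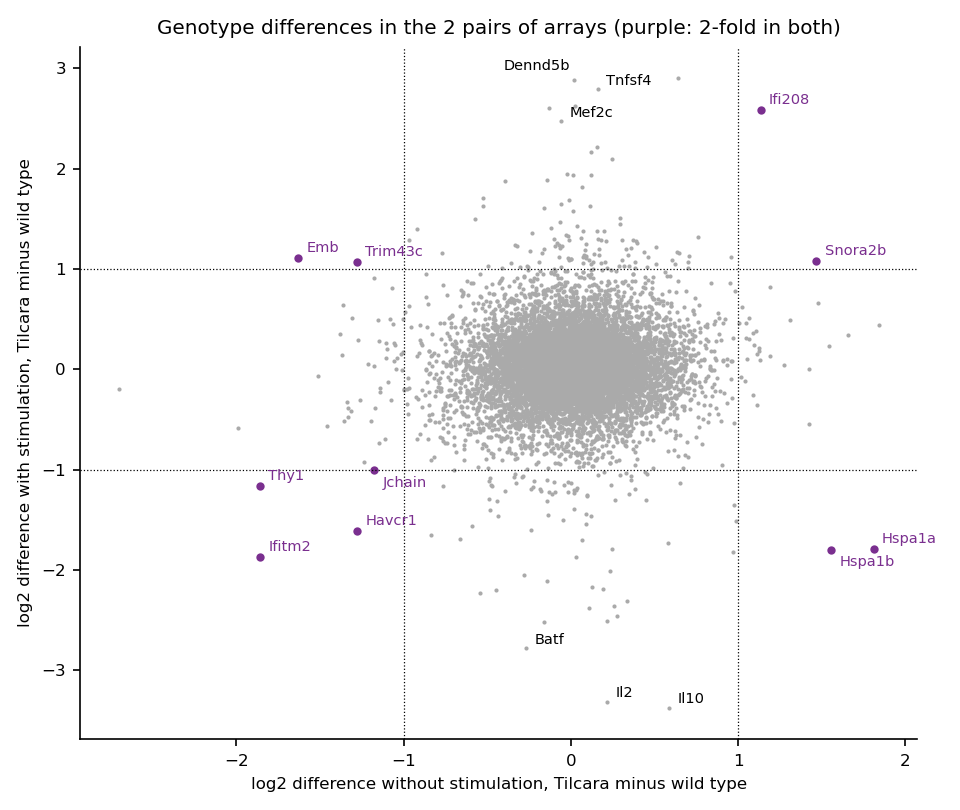
Log2 difference, Tilcara minus wild type, without stimulation (x axis) and with stimulation (y axis) for the 11640 used genes, 1 array per group; dotted lines mark 2-fold, and purple genes pass it in both states. Il10, Il2 and Batf lie within 2-fold on the x axis and at -3.37, -3.31 and -2.78 on the y axis.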

How the data were processed

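Total RNA of 4 sorted B cell samples was hybridised to Affymetrix arrays. The deposited table holds log2 signals of 41345 probe sets, which the authors made with RMA, per the submitters' processing notes; its version and settings are not stated there. RMA in general corrects background, equalises the distributions of arrays and summarises probes. Array medians lay between 3.73 and 3.79, and changes in total RNA per cell cannot be seen. With 1 array per group there is no replicate error, and the number of arrays limits the precision.

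The platform annotation gave 1 symbol to 23521 probe sets, several to 1814 and none to 16010; 23328 gene IDs were found in RefSeq, with no symbol to update. The probe set with the highest mean of the 4 arrays stood for its gene. The floor of 3.83 is the median over every value of the probe sets with 1 symbol, and a gene was used if a stimulated value reached it. Differences are Tilcara minus wild type, counted at 1 (2-fold), with no test. Computation used Python 3.11.15, pandas 2.3.3 and, for cyclic loess, limma 3.58.1, and was tested on simulated data.

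The comparison, its 36 lists and its rules were chosen with earlier results of these data known. The result of 1 list is not reported here. Named are the 12 largest differences each way (without predicted genes, olfactory and vomeronasal receptors, small RNAs, pseudogenes and receptor segments, of which up to 3 each way), PKC genes, up to 4 members per list and markers of other cells past 2-fold; other genes were named after their values were seen. Alternatives were other normalizations, probe set choices, filters and a 1.5-fold threshold. A promoter for Il10, Cd79b or Tnfsf4 was not used here.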

Additional observations from a re-analysis of the deposited data

Results flagged for a closer look

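A few genes differed at least 2-fold in both states but in opposite directions. With 1 array per group this contrast between the states was not tested. The inducible heat shock genes Hspa1a and Hspa1b differed by -1.79 and -1.80 between the stimulated arrays and by 1.81 and 1.56 between the resting arrays. Hspa1a read 7.79 in resting wild type, 9.60 in resting Tilcara, 7.89 in wild type and 6.10 in Tilcara after stimulation. Emb, which encodes embigin, differed by 1.11 with stimulation and by -1.63 without it; its second probe set read 4.89 and 4.88 in the stimulated arrays. Trim43c differed by 1.07 and -1.28, with no signal above 4.66.

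Probe sets without a single gene symbol were not part of the comparison. Of the 9087 with a stimulated value at or above the floor, 8.91% differed at least 2-fold between the stimulated arrays, 501 higher and 309 lower. Between the resting arrays 11.2% of them did. Both shares exceed those of the named genes, 1.76% and 0.704%.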

How the results depend on the processing

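The counts of genes at least 2-fold apart kept within 1.5 times of 115 higher and 90 lower after centring (119 and 88), cyclic loess (105 and 91), averaging probe sets (115 and 89), choosing probe sets by the stimulated arrays (114 and 91), no filter (134 and 130), leaving out marker genes of other cells (115 and 88) and a filter over all 4 arrays, chosen after seeing the data (119 and 93). With both stimulated values at the floor there were 71 higher and 66 lower, with a floor at the 75th percentile (5.85) 51 and 51, and at 1.5-fold 544 and 429; fewer genes tested or a lower threshold make these differ by construction. All of the 24 genes with the largest differences kept their direction and stayed past 2-fold wherever they passed the filter, the smallest value being 1.14 for Dennd5b with probe sets chosen by the stimulated arrays. Among the other named genes Jchain (-0.99 after centring and after loess), Gm2022 (-0.99) and Nr4a2 (0.97) were under 2-fold, and Ccnd2 (-1.02) passed it after loess. The median of erythroid markers, -0.57 in the comparison, was 0.23 both with a stricter floor and with both values at the floor, where 1 gene was left, and that of NK cell markers, -0.30, was 0.0093 with the filter over all arrays; the cause was not tested. No paired analysis was possible because each group held 1 array.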

Other observations

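Some genes that differed between the stimulated arrays were neighbours on a chromosome, by their order in RefSeq (GRCm38.p6); these were chosen after their values were seen. Among 11537 pairs of adjacent used genes, both were at least 2-fold lower in 5 and both higher in 6, and in none did they go in opposite directions. Singly, 0.773% of all used genes were lower and 0.988% higher. Whether the pair counts differ from what these shares would give was not tested. From Jak2 to Ric1 on chromosome 19 lay 8 used genes, of which Jak2, Insl6, Cd274, Pdcd1lg2 and Ric1 were at least 2-fold lower in Tilcara. Plgrkt and A930007I19Rik, between them, differed by -0.64 and -0.66, and Rln1 by 0.06. The genes flanking the stretch, Rcl1 and Ermp1, differed by -0.01 and -0.38. Stat5b and Stat5a, Hspa1b and Hspa1a, and Tnfsf4 and Tnfsf18 were further adjacent pairs with the same direction.

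The prostaglandin E2 receptor genes differed in opposite directions: Ptger4 read 7.66 in wild type and 6.06 in Tilcara after stimulation, and Ptger2 read 2.93 and 4.23. Ptger2 was under the floor in stimulated wild type, so it entered through the Tilcara array and its difference is approximate. The endosomal RNA sensor gene Tlr7 read 7.81 and 5.93, with 7.81 and 7.84 at rest, so stimulated Tilcara stood alone. Slc15a3, a lysosomal peptide transporter gene, read 9.10 and 7.09. Samhd1, a dNTP hydrolase gene, read 8.27 and 9.73, below its resting signals of 10.86 and 10.80.

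Of 138 used microRNA genes 3 were at least 2-fold lower, Mir32 (-1.69), Mir1951 (-1.51) and Mir532 (-1.46), and 4 higher, led by Mir5104 (1.94), Mir221 (1.28) and Mir1192 (1.16). The highest signal of these 6 in any array was 5.70. Of 21 used immunoglobulin and T cell receptor segments Igkv4-72 (1.19) and Igkv4-59 (1.13) were higher. Over all used genes 0.773% were at least 2-fold lower and 0.988% at least 2-fold higher. Further classes left out of the ranking held Gm20234 (-1.31), Gm2808 (-1.21), Gm2022 (-1.03), 2310010J17Rik (1.32), 1700066C05Rik (1.3), 4930417O13Rik (1.29), Tmem229b-ps (1.45), Snora2b (1.08), Olfr467 (1.64), Vmn1r127 (1.12) and Vmn1r2 (-1.15).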
